A study of Mus musculus with 12 samples.

Results

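The expression of 9 genes was examined in B16 cells, a mouse melanoma line. They encode ligands through which tumour cells engage inhibitory receptors of T cells, natural killer (NK) cells and phagocytes. They were taken from the count table by symbol: Cd274, Pdcd1lg2, Tnfrsf14, Lgals9, Cd47, Cd276, Pvr, Nectin2 and Clec2d. All 9 symbols matched 1 Ensembl entry each, out of 56093 entries in the table. The filter on low counts kept 8 of the 9, among 14089 genes tested, and left out Pdcd1lg2. The rule takes symbols and no measured values, although the set was drawn up with earlier results of these data known.

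The libraries were made from total RNA of cultured B16 cells with an mRNA library kit and sequenced as read pairs on an Illumina HiSeq. Control cells carried a short hairpin RNA against RFP (shRFP), and knockdown cells carried one against Sdc1 (shSdc1), the gene of the heparan sulfate proteoglycan syndecan-1. Each was left unstimulated or given IFNγ at 10 ng/ml for 24 h, which gave 4 groups of 3 libraries. All groups share the B16 background, DMEM with 10% serum and the presence of a hairpin. Whether more than 1 hairpin or clone was used, and whether the 3 libraries of a group were separate cultures, is not stated in the labels. P-values therefore measure only the spread between these libraries, which may be technical.

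Inhibitory checkpoint receptors stop lymphocytes and macrophages from acting on cells that carry their ligands. PD-L1 (Cd274) and PD-L2 (Pdcd1lg2) bind PD-1 on T cells, HVEM (Tnfrsf14) binds BTLA and CD160, and galectin-9 (Lgals9) binds TIM-3. CD155 (Pvr) binds the inhibitory receptor TIGIT and CD112 (Nectin2) the inhibitory receptor PVRIG, and both also bind the activating receptor DNAM-1. CD47 (Cd47) binds SIRP alpha on phagocytes, Clr-b (Clec2d) binds NKR-P1B on NK cells, and B7-H3 (Cd276) is a B7 family member whose receptor is not settled. IFNγ, released by activated T and NK cells, acts through the kinases JAK1 and JAK2 and transcription factors such as IRF1, and its induction of PD-L1 is a textbook case of feedback on T cells.

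Factors of the IRF family bind repeats of the form GAAANNGAAA, and this string was looked for on both strands of the 250 bases before each RefSeq gene start (build GRCm38.p6). Of the 9 genes 8 had a promoter entry there. GAAANNGAAA, or its reverse complement TTTCNNTTTC, was found for 3 of these 8 genes and for 2.98% of all 32851 promoters. The 3 sequences that hold the string are shown so that the matches can be read in place. That of Cd274, the PD-L1 gene, is shown as one that does not hold it. Whether the string bears on the IFNγ response was not tested. The sequences run 5′ to 3′ on the gene's own strand, with any match in capitals.
Tnfrsf14 (chr4:154928078-154928327, minus strand): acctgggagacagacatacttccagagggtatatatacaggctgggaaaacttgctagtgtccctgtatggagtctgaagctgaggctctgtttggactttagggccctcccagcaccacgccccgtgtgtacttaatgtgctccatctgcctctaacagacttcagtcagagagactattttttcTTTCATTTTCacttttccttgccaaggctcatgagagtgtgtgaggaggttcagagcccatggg
Lgals9 (chr11:78984925-78985174, minus strand): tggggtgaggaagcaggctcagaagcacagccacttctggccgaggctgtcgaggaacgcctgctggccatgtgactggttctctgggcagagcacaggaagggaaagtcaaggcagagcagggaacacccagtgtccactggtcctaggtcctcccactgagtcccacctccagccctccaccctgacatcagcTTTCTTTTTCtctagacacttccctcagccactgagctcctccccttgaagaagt
Clec2d (chr6:129180365-129180614, plus strand): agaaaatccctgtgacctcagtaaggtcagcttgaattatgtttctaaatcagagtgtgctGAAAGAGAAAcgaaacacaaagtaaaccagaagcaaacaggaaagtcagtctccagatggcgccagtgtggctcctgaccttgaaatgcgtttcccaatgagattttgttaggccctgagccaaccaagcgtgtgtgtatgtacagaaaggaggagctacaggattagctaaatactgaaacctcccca
Cd274 (chr19:29367188-29367437, plus strand): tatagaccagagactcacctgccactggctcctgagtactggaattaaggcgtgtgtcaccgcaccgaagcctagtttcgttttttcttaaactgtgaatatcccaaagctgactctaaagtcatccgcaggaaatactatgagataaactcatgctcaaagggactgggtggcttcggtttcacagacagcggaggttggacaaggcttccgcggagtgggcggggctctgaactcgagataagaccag
The match lay 64 to 55 bases before the start of Tnfrsf14, 55 to 46 before that of Lgals9 and 189 to 180 before that of Clec2d. A match describes the letters only, and the absence of one says only that this string is not in this window.

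The libraries held 14337771 to 21548940 counts. Levels are TMM-scaled CPM, the counts of a gene relative to the library's total, given as mean ± SD of 3 libraries, and log2 fold changes carry their standard error (SE). Differences were tested with edgeR over all 14089 genes, and a gene is said to rise or fall where the adjusted p was under 0.05. Sdc1, the targeted gene, was read at 73.9 to 76.4 CPM in unstimulated controls against 22.1 to 25.7 in unstimulated knockdown libraries, and at 79.6 to 102.7 against 25.1 to 27.0 CPM after IFNγ. In shSdc1 replicate 3 the entry ENSMUSG00000119584, which has no symbol in the reference used, held 4.79% of all reads counted, where the other 11 libraries gave it 0.0842 to 0.195%. All 7 melanocyte markers were detected, with a summed level of 11750 to 18170 CPM over the 12 libraries. Of 14 leukocyte markers 6 were at 0 counts in all libraries, among them Cd3e, Cd8a, Ncr1 and Adgre1, and Ptprc had 1 count in all.

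Clec2d, Tnfrsf14, Cd274, Lgals9 and Cd47 rose with IFNγ in control cells, and these genes and Pvr rose with it in knockdown cells. The knockdown itself raised Lgals9, Pvr and Clec2d in both states, lowered Cd274 slightly in both, and raised Cd47 in stimulated cells, with a difference between the states that passed its own test. Cd276 and Nectin2 passed no test, and Pdcd1lg2 stayed near 0 counts. In bulk RNA fewer expressing cells and less RNA per cell cannot be told apart.

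**Figure D1:**
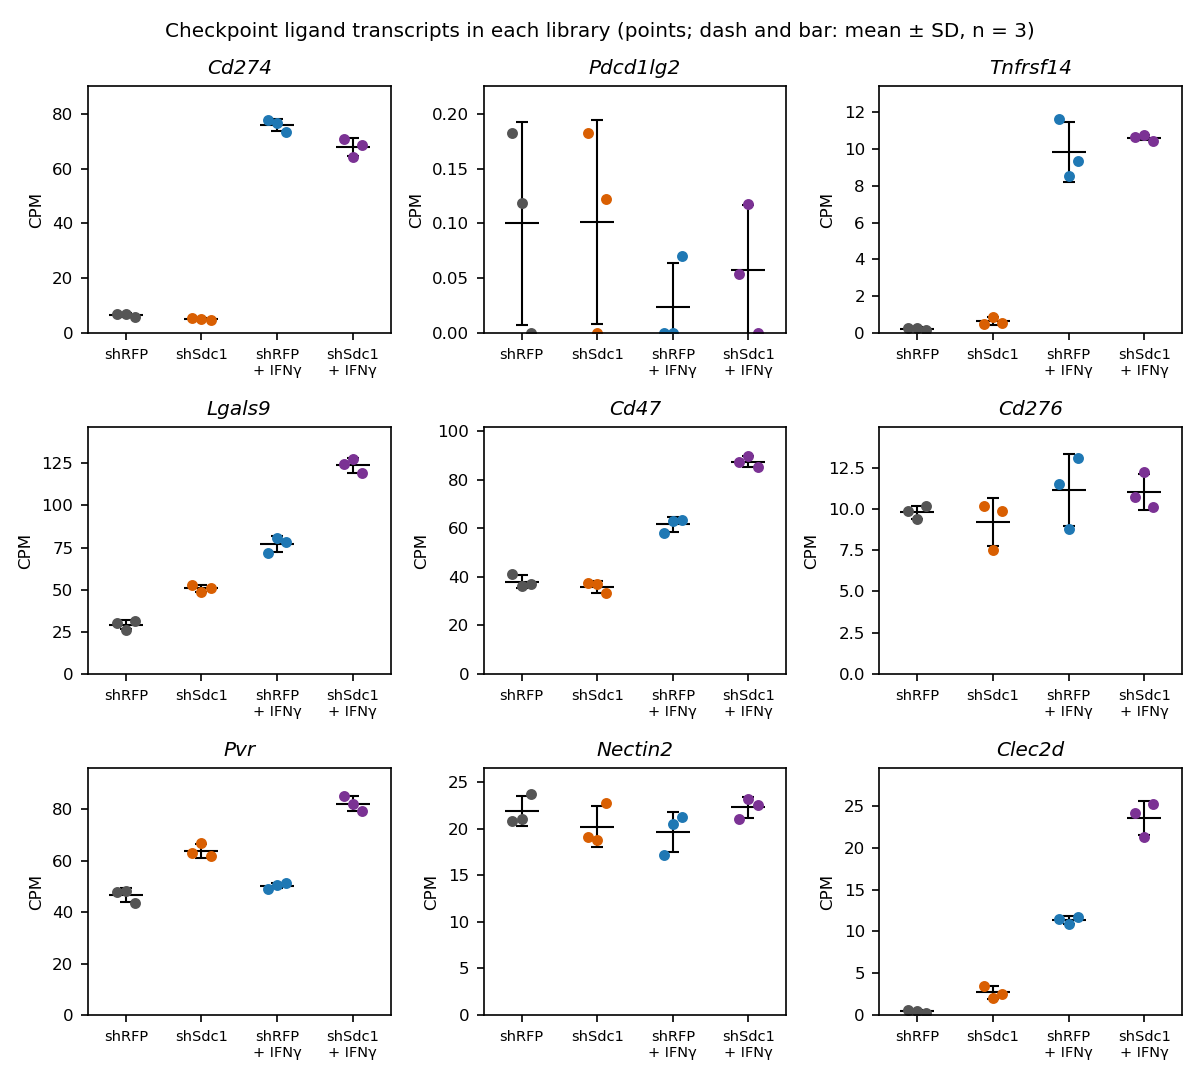
Level of each ligand gene in every library, in CPM, by group (shRFP and shSdc1, each without and with IFNγ). Each point is 1 library, and the dash and bar are the mean ± SD of 3. Each panel has its own vertical scale. Cd274 stands at 4.64 to 7.11 CPM without IFNγ and 64.2 to 77.8 CPM with it, while Cd276 and Nectin2 overlap across groups.

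In control cells 5 of the 8 tested ligand genes rose with IFNγ and 0 fell, where 31.6% of all genes passed the test and 17.2% passed as higher. The median log2 fold change of the 8 was 1.04, against -0.0058 over all genes tested. The ranges of the 2 groups did not overlap for 6 of the 8, against 41.4% of all genes. In knockdown cells 6 of 8 rose and 0 fell, against 30.5% called over all genes and 17.5% called as higher. Tnfrsf14, counted in all of these, passed the filter only through the IFNγ libraries, where it is high. Clec2d, also counted in all of these, passed it through every group but shRFP, where it is lowest. Pdcd1lg2, which the same filter left out, is in none of them. With upper-quartile scaling the split over all genes moved from 2422 higher and 2024 lower to 1759 and 2811 in control cells, and from 2469 and 1826 to 2047 and 2495 in knockdown cells. The 5 and 6 ligand calls stood under it.

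Without IFNγ the knockdown raised 4 of the 8 genes and lowered 1, where 28.6% of all genes passed the test, 14.0% as higher and 14.6% as lower. One of the 4, Tnfrsf14, passed the filter only through the IFNγ libraries, where it is high, and a fit of the unstimulated libraries alone did not keep it and called 3 genes higher and 1 lower. Of those 3, Clec2d passed the filter of that fit only through shSdc1, where it is high. Non-overlapping groups were found for 5 of the 8 and for 43.3% of all genes. With IFNγ it again raised 4 and lowered 1, against 36.3% of all genes called, 18.9% as higher and 17.4% as lower, and groups did not overlap for 5 of 8 against 44.9%. The members' median log2 difference was 0.18 without and 0.34 with IFNγ, against 0 and 0.017 over all genes. The genes that rose were Clec2d, Tnfrsf14, Lgals9 and Pvr without IFNγ and Clec2d, Pvr, Lgals9 and Cd47 with it. Each IFNγ comparison shares 1 group of libraries with each knockdown comparison.

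The IFNγ response differed between knockdown and control cells for 3 of 8 genes, Cd47, Pvr and Clec2d, where 9.73% of all genes passed this interaction test, 4.58% as higher and 5.15% as lower. That count of all genes, 1371, was 847, 839, 789 and 822 without shRFP replicate 1, shRFP replicate 2, shSdc1 replicate 1 and shSdc1 with IFNγ replicate 2 respectively. Without shSdc1 replicate 3 the 4 rises in the knockdown without IFNγ stood, the fall of Cd274 did not pass, and the interaction had 2 calls among the ligands, since Pvr did not pass.

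**Figure D2:**
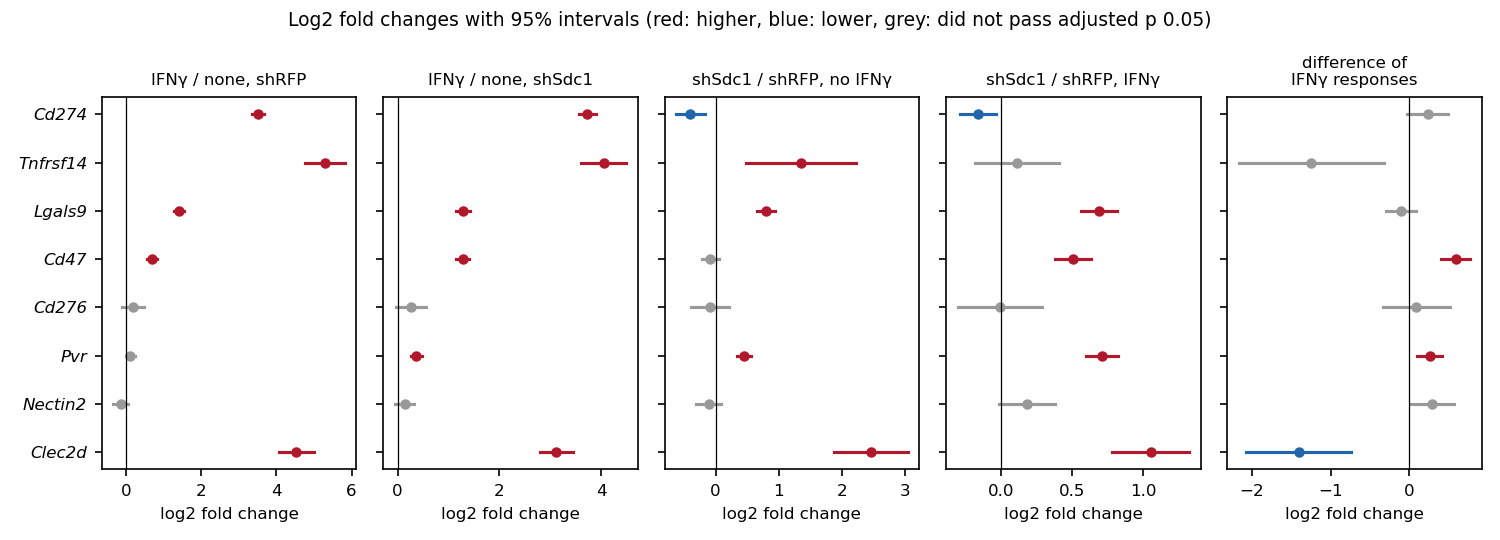
Log2 fold change of the 8 tested ligand genes in the 4 comparisons between groups and the interaction, with bars for 95% intervals. Red marks genes that rose, blue genes that fell and grey genes that did not pass the edgeR test, and panels differ in horizontal scale. The IFNγ changes reach 5.29 for Tnfrsf14, and the knockdown changes lie between -0.40 for Cd274 and 2.455 for Clec2d.

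Cd274 (ENSMUSG00000016496), the gene of PD-L1, was low in unstimulated cells, at 7.11, 7.06 and 5.80 CPM in the shRFP libraries and 5.65, 5.004 and 4.64 CPM in the shSdc1 libraries. After IFNγ the shRFP libraries held 77.8, 76.6 and 73.3 CPM and the shSdc1 libraries 70.65, 64.2 and 68.7 CPM. Every knockdown library was below every control library of the same state, and every stimulated library was far above every unstimulated one. IFNγ changed it by 3.497 ± 0.08 on the log2 scale in control cells (edgeR adjusted p = 1.31e-17) and by 3.73 ± 0.08 in knockdown cells (edgeR adjusted p = 1.06e-17). The knockdown changed it by -0.40 ± 0.11 without IFNγ (edgeR adjusted p = 0.00922) and by -0.16 ± 0.06 with it (edgeR adjusted p = 0.0428).

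In CPM the knockdown difference of Cd274 was -1.56 ± 0.52 (SE) without and -8.06 ± 2.33 with IFNγ, small beside the rise of 69.3 ± 1.41 CPM with IFNγ in control cells. The difference between the 2 log2 effects was 0.23 ± 0.12 and did not pass (edgeR adjusted p = 0.239). The knockdown calls on Cd274 depended on single libraries. Without IFNγ the call ended without shRFP replicate 1 (-0.34, edgeR adjusted p = 0.0545) or without shSdc1 replicate 3 (-0.33, 0.0664), the library with the dominant entry. With IFNγ it ended in 6 of 21 alternatives, among them upper-quartile scaling (adjusted p = 0.062), the DESeq2 Wald test (0.0643) and the fit without shSdc1 with IFNγ replicate 2 (-0.13, 0.167), and the adjusted p ranged from 0.0176 to 0.167.

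An annotated gene on the opposite strand, AC119228.1, overlaps 511 of the 3622 exon bases of Cd274, or 14.1%. Its counts were 10 to 26 in shRFP and 6 to 26 in shSdc1, and 115 to 179 and 138 to 181 with IFNγ. It rose by 3.21 ± 0.28 and 3.33 ± 0.29 on the log2 scale with IFNγ in control and knockdown cells. No source used here gives the strand setting of the counting, and reads of Cd274 and of its antisense partner cannot be told apart within the overlap. Counts of Cd274 in single libraries ran from 76 to 156 without and from 1031 to 1316 with IFNγ.

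Pdcd1lg2 (ENSMUSG00000016498), the gene of PD-L2, had 15 counts in all 12 libraries. The counts were 4, 2 and 0 in shRFP, 3, 0 and 2 in shSdc1, 0, 0 and 1 in shRFP with IFNγ, and 1, 2 and 0 in shSdc1 with IFNγ. The pooled level of a group was at most 0.113 CPM, and its exact 95% upper limit was 0.245, 0.239, 0.123 and 0.173 CPM in the same order of groups. These limits cover counting error only. A rise with IFNγ was not detectable in control cells, where the ratio of counts was 0.196 (95% exact interval 0.00425 to 1.61), nor in knockdown cells at 0.579 (0.09 to 2.98). Pdcd1lg2 was thus at or under the floor of 3 counts over a group with IFNγ, where Cd274 was read at 64.2 to 77.8 CPM, and just above it without.

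Tnfrsf14 (ENSMUSG00000042333) encodes HVEM, a TNF receptor family member that also serves as a ligand of BTLA. It held 6, 5 and 2 counts in shRFP and 8, 14 and 9 in shSdc1, or 0.236 ± 0.0856 and 0.637 ± 0.209 CPM. After IFNγ the shRFP libraries held 11.6, 8.54 and 9.37 CPM and the shSdc1 libraries 10.7, 10.75 and 10.5 CPM. The stimulated groups overlapped each other and lay far above both unstimulated groups.

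The IFNγ response of Tnfrsf14 was 5.29 ± 0.25 on the log2 scale in control cells, rank 75 of 14089 genes from the highest, and 4.05 ± 0.21 in knockdown cells. The corresponding ratios of summed counts were 40.3 (95% exact interval 23.3 to 76.3) and 16.8 (11.7 to 24.9). Without IFNγ the knockdown was higher by 1.355 ± 0.41 (edgeR adjusted p = 0.0195), a ratio of counts of 2.6 (1.32 to 5.42) from 31 and 13 counts. The gene reached this test, and those of its IFNγ response, only through the counts of its IFNγ libraries (133 to 199). A fit of the unstimulated libraries alone dropped it. The knockdown call without IFNγ ended without shRFP replicate 3 (1.14, edgeR adjusted p = 0.0673) or shSdc1 replicate 2 (1.06, 0.126). With IFNγ the knockdown difference was 0.11 ± 0.14 (adjusted p = 0.572), and the difference between the responses, -1.24 ± 0.44, did not pass (edgeR adjusted p = 0.0782).

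Clec2d (ENSMUSG00000030157), the gene of the NK cell ligand Clr-b, had the highest knockdown effect of the 8 tested genes on the log2 scale in both states. Unstimulated shRFP libraries held 0.593, 0.534 and 0.276 CPM, from 26 counts in all, and shSdc1 libraries 3.52, 2.002 and 2.57 CPM, from 132 counts. After IFNγ the values were 11.4, 10.9 and 11.8 CPM (shRFP) and 24.1, 21.3 and 25.3 CPM (shSdc1). None of the 4 groups overlapped, and the order was shRFP, shSdc1, shRFP with IFNγ, shSdc1 with IFNγ.

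The knockdown raised Clec2d by 2.455 ± 0.28 without IFNγ (edgeR adjusted p = 1.57e-06), rank 74 of 14089 genes, and by 1.05 ± 0.13 with it (edgeR adjusted p = 3.44e-06). The ratios of summed counts were 5.54 (95% exact interval 3.62 to 8.79) and 2.07 (1.86 to 2.3). The gene passed the filter through every group but shRFP (13, 9 and 4 counts). Among unstimulated libraries it passed only through shSdc1 (58, 32 and 42 counts), where it is high. IFNγ raised it by 4.52 ± 0.22 in control and 3.12 ± 0.15 in knockdown cells, and these responses differed by -1.405 ± 0.32 (edgeR adjusted p = 0.00983). On the CPM scale the knockdown difference went the other way, 2.23 ± 0.45 (SE) without and 12.2 ± 1.21 with IFNγ, both below the 21.5 and 46.8 CPM of Lgals9. The knockdown cells thus had the higher level before and after IFNγ and the smaller fold between them. Of 6 other Clec2 family genes 0 passed the filter: Clec2e, Clec2h and Clec2i were at 0 counts, Clec2f and Clec2g had 2 and 1 in all, and Clec2l had 0 to 10 a library.

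Lgals9 (ENSMUSG00000001123) encodes galectin-9, a secreted lectin and ligand of TIM-3. Its levels were 30.1, 26.1 and 31.7 CPM in shRFP, 52.6, 48.85 and 51.01 CPM in shSdc1, 71.7, 80.6 and 78.6 CPM in shRFP with IFNγ and 124.7, 127.6 and 119.1 CPM in shSdc1 with IFNγ. The 4 groups did not overlap. The knockdown raised it by 0.80 ± 0.07 without and 0.69 ± 0.06 with IFNγ, and IFNγ raised it by 1.395 ± 0.07 in control and 1.28 ± 0.06 in knockdown cells. The interaction was -0.11 ± 0.09 (edgeR adjusted p = 0.475), so on the log2 scale a difference between the effects was not detectable. All 4 calls stood in each of the 21 alternatives run for them.

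The summed level of the 14 leukocyte markers was higher in knockdown than in control libraries of the same state, as were Lgals9, Pvr and Clec2d. It was 3.11 to 3.44 CPM in shRFP, 8.57 to 9.20 in shSdc1, 6.73 to 9.02 in shRFP with IFNγ and 16.01 to 17.45 in shSdc1 with IFNγ. Cd68, a lysosomal membrane protein of macrophages that other cells also hold, made up most of it, with means of 2.45, 7.25, 6.32 and 14.4 CPM in the same order, and Lyz2, the lysozyme gene of myeloid cells, stood at 0.511, 1.35, 0.740 and 1.76 CPM. Both passed as higher in the knockdown without and with IFNγ, by 1.54 ± 0.18 and 1.20 ± 0.15 for Cd68 and by 1.44 ± 0.35 and 1.24 ± 0.32 for Lyz2. The third marker tested, Cd79a, passed in neither state, at 0.20 ± 0.80 and -0.51 ± 0.62 (edgeR adjusted p = 0.885 and 0.557). Thus 2 of 3 tested markers passed as higher in each state, beside 14.0 and 18.9% of all genes. The part of these markers in the results was not tested. Between shRFP with IFNγ and shSdc1, Lgals9 and Clec2d were higher in the former. The sum was not, nor was Pvr, at 49.15 to 51.35 CPM against 61.7 to 66.9 CPM. This pair of groups was not among the comparisons, and neither its order nor a link between the sum and the ligand genes was tested. The lineage markers Cd3e, Cd3d, Cd8a, Ncr1, Adgre1 and Itgax were at 0 in all 12 libraries. The summed level of the melanocyte markers was lower in the knockdown, at 11750 to 13370 CPM against 16610 to 18170 CPM in control libraries. The markers moved unequally: without and with IFNγ Pmel changed by -1.29 and -1.50 on the log2 scale, Dct by -0.105 and -0.18, and Sox10 by -0.13 and -0.05. All 7 passed as lower without IFNγ and 6 with it, all but Sox10, beside 14.6 and 17.4% of all genes.

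Cd47 (ENSMUSG00000055447) encodes the signal that tells macrophages not to engulf a cell. Without IFNγ the control libraries (41.2, 36.3 and 36.9 CPM) and the knockdown libraries (37.7, 37.2 and 33.2 CPM) overlapped. With IFNγ the controls (58.1, 63.2 and 63.6 CPM) lay below the knockdown libraries (87.4, 89.7 and 85.3 CPM) with no overlap. The knockdown difference was -0.09 ± 0.06 without IFNγ (edgeR adjusted p = 0.366; 95% interval -0.22 to 0.05) and 0.51 ± 0.06 with it (edgeR adjusted p = 2.2e-06). IFNγ raised it by 0.69 ± 0.06 in control and by 1.28 ± 0.06 in knockdown cells. The difference of these responses, 0.59 ± 0.09, passed (edgeR adjusted p = 0.000437), and its adjusted p stayed between 7.43e-08 and 0.00233 over 20 alternatives.

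Pvr (ENSMUSG00000040511) encodes CD155, the main ligand of TIGIT. Its levels were 47.9, 48.35 and 43.7 CPM in shRFP, 62.8, 66.9 and 61.7 CPM in shSdc1, 49.15, 50.6 and 51.35 CPM in shRFP with IFNγ and 85.25, 82.2 and 79.2 CPM in shSdc1 with IFNγ. Knockdown libraries were above control libraries in both states, by 0.45 ± 0.05 (edgeR adjusted p = 2.99e-06) and 0.71 ± 0.05 (edgeR adjusted p = 5.59e-09). IFNγ raised it by 0.37 ± 0.05 in knockdown cells (edgeR adjusted p = 2.18e-05). In control cells the value was 0.11 ± 0.05 and did not pass (adjusted p = 0.146), although the ranges did not overlap. The difference of responses, 0.26 ± 0.08, passed (edgeR adjusted p = 0.037) but lost its call in 11 of 20 alternatives, among them DESeq2 (0.0525), no filter (0.0864) and the fit without shSdc1 replicate 3 (0.102), with a range of 0.0205 to 0.109.

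Nectin2 (ENSMUSG00000062300) encodes CD112, a relative of CD155. Its levels were 20.8, 21.1 and 23.8 CPM in shRFP, 19.1, 18.8 and 22.7 CPM in shSdc1, 17.2, 20.5 and 21.2 CPM in shRFP with IFNγ and 21.05, 23.2 and 22.6 CPM in shSdc1 with IFNγ. All groups overlapped at least in part with shRFP, and none of the 5 comparisons passed, with log2 values between -0.15 and 0.29. Cd276 (ENSMUSG00000035914), the gene of B7-H3, was read at 9.89, 9.37 and 10.2 CPM in shRFP, 10.15, 7.51 and 9.90 CPM in shSdc1, 11.5, 8.79 and 13.1 CPM in shRFP with IFNγ and 10.7, 12.2 and 10.1 CPM in shSdc1 with IFNγ. Its 95% intervals for the knockdown were -0.40 to 0.21 without and -0.30 to 0.29 with IFNγ, so changes within those bounds are compatible with these data.

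Per length of exon (RPKM, the CPM value per kilobase of annotated exon) the genes can be ranked against each other. In shRFP cells Lgals9 led with 13.7 ± 1.35, ahead of Pvr (7.62 ± 0.416), Nectin2 (6.26 ± 0.468) and Cd47 (6.07 ± 0.425), of which the last 2 overlapped. Cd276 and Cd274 followed at 2.68 and 1.84 RPKM, and Clec2d and Tnfrsf14 at 0.386 and 0.164 RPKM. With IFNγ Cd274 was second to Lgals9 in control cells, at 21.0 ± 0.640 against 36.0 ± 2.19 RPKM. In stimulated knockdown cells Lgals9 stood at 57.9 ± 2.02 RPKM, and Clec2d (19.4 ± 1.70) and Cd274 (18.7 ± 0.913) overlapped in second place.

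The 9 genes summed to 38.8 ± 1.46 RPKM in shRFP, 52.4 ± 1.60 in shSdc1, 99.9 ± 1.82 in shRFP with IFNγ and 140.2 ± 1.73 in shSdc1 with IFNγ. Cd274 made up 4.75% of that sum in shRFP and 2.69% in shSdc1, and 21.0% and 13.4% with IFNγ. Clec2d made up 0.997%, 4.22%, 9.38% and 13.8% in the same order as the sums, and Lgals9, the largest part throughout, 35.3%, 45.4%, 36.0% and 41.3%. In knockdown cells the shares of Lgals9 and Clec2d were higher and that of Cd274 lower. With IFNγ the RPKM of Cd274 itself was 18.7 in knockdown against 21.0 in control cells, while the sum of the set was higher.

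**Figure D3:**
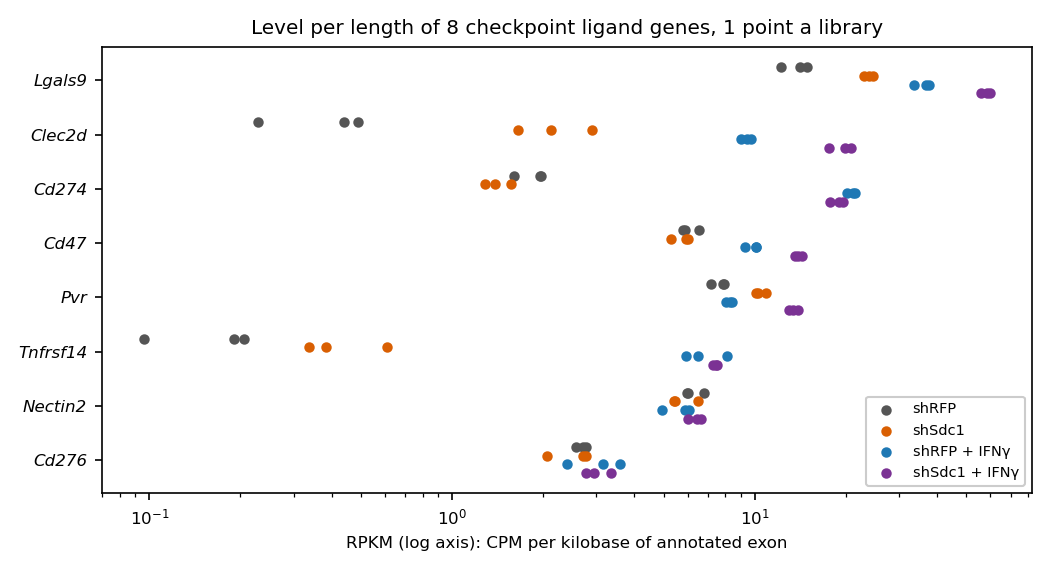
RPKM of 8 ligand genes in each library on a horizontal log axis, by group (colours), with Pdcd1lg2 left out as it was near 0 counts. Each point is 1 library. Lgals9 is the highest in every group, and Tnfrsf14, the lowest of the 8 without IFNγ, stands above Nectin2 and Cd276 with it by group means.

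Genes with the most similar pattern were found by the root mean square difference of centred log2 CPM over the 12 libraries, among 11303 genes with a mean of at least 1 CPM. For Cd274 they were H2-DMb1 (0.145), Rsad2 (0.215) and Cmpk2 (0.236). Their log2 values for the knockdown with IFNγ were -0.05, 0.31 and 0.25, against -0.16 for Cd274. For Tnfrsf14 they were H2-DMa (0.184), Trim21 (0.203) and Tapbp (0.209). The distance adds 0.5 CPM before the log, which shrinks the fold of a gene as low as unstimulated Tnfrsf14. In the edgeR fit IFNγ changed these by 4.35, 3.59 and 3.98 in control cells, against 5.29 for Tnfrsf14. For Lgals9 they were Bid (0.11), Parp3 (0.118) and Il17rc (0.186). Cd47 lay nearest to Ly75 (0.0825), Pml (0.118) and Zfp455 (0.122). Clec2d had no gene as near, the closest being Dhx58 (0.394), C1ra (0.448) and Ifih1 (0.484). IFNγ changed these 3 by 3.45, 2.815 and 3.19 in control cells, against 4.52 for Clec2d, which was also low in shRFP. The distances describe these libraries, which all genes share, and carry no test.

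The path from the IFNγ receptor to the PD-L1 gene was read from 13 genes for its receptor chains, kinases, transcription factors and inhibitors, all of them tested. With IFNγ 10 of the 13 rose in control and 10 in knockdown cells, with 0 lower in either, and medians of 1.14 and 1.205, a share of 76.9% against 31.6 and 30.5% of all genes. The log2 changes in control and knockdown cells were 5.04 and 4.495 for Irf1, 4.70 and 4.31 for the inhibitor Socs1 (from 8 and 13 counts), 3.65 and 4.15 for Stat2, and 2.84 and 2.80 for Irf9. Of those 13 counts 11 lay in shSdc1 replicate 3, and Socs1 passed the filter only through the IFNγ libraries. Its ratios of counts were 27 (95% exact interval 13.4 to 63.5) and 20.3 (11.7 to 38.7). In unstimulated cells the knockdown raised 3 and lowered 1, or 30.8% against 28.6% of all genes, a share near the background, while Cd274 fell. Irf1 rose by 0.48 ± 0.08, Stat3 by 0.22 ± 0.05 and Jak1 by 0.135 ± 0.05, and Jak2 fell by 0.19 on the log2 scale. With IFNγ the knockdown raised 6 and lowered 0 (46.2% against 36.3% of all genes), among them Stat2 (0.53 ± 0.05), Ifngr1 (0.29 ± 0.09), Ifngr2 (0.24 ± 0.07) and Irf2 (0.22 ± 0.08).

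**Figure D4:**
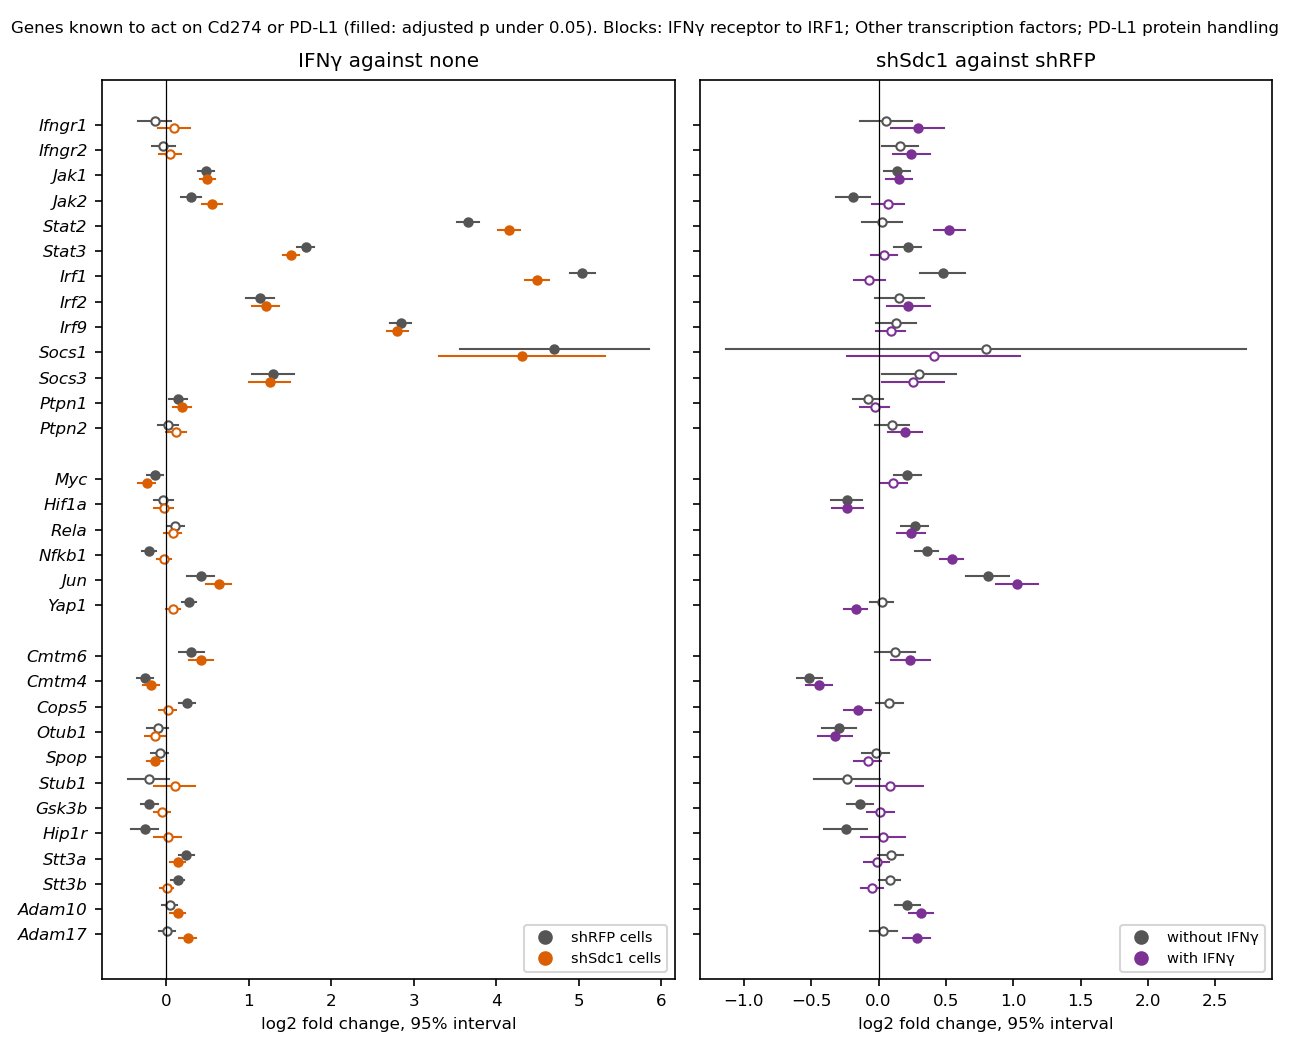
Log2 fold change of genes of the IFNγ to PD-L1 path, of other regulators of Cd274 transcription and of genes acting on the PD-L1 protein, for IFNγ against none in shRFP and shSdc1 cells (left) and for the knockdown in each state (right). Bars are 95% intervals and filled points passed the edgeR test. On the right Jun has the highest called value in both states, 0.81 and 1.03, and Cmtm4 the lowest, -0.51 and -0.44.

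Of 6 other genes known to act on Cd274 transcription the knockdown raised 4 and lowered 1 without IFNγ and raised 3 and lowered 2 with it, 5 of 6 in each state beside 28.6 and 36.3% of all genes. Jun rose by 0.81 ± 0.08 and 1.03 ± 0.07, Nfkb1 by 0.36 ± 0.04 and 0.54 ± 0.04, and Rela by 0.27 ± 0.05 and 0.24 ± 0.05. Myc rose without IFNγ only in its own test (0.21 ± 0.05), and with IFNγ it stood at 0.11 ± 0.05 (adjusted p = 0.078). Hif1a fell by 0.24 and 0.23 on the log2 scale, and Yap1 stood at 0.02 and fell by 0.17. Of 12 genes acting on the PD-L1 protein 1 rose and 4 fell without IFNγ, and 3 rose and 3 fell with it, 5 of 12 and 6 of 12 beside the same shares of all genes. Cmtm4, which stabilises PD-L1 at the cell surface, fell by 0.51 and 0.44 on the log2 scale, and the deubiquitinase Otub1 by 0.29 and 0.33. Cmtm6, the related stabiliser, stood at 0.12 ± 0.07 without IFNγ (adjusted p = 0.233) and rose by 0.24 ± 0.07 with it, and the sheddase Adam10 rose by 0.21 ± 0.04 and 0.31 ± 0.04. PD-L1 protein was not measured here.

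Of 10 receptor genes for these ligands 3 passed the filter. Sirpa, the receptor of CD47, was read at 331.0 CPM in shRFP, 290.5 in shSdc1, 307.4 in shRFP with IFNγ and 210.8 in shSdc1 with IFNγ, so the libraries held RNA of both partners. The knockdown lowered it by 0.19 and 0.54 on the log2 scale, and the effects differed by -0.36 ± 0.06 (edgeR adjusted p = 0.00107), opposite in sign to the 0.59 of Cd47. Havcr2 (TIM-3) stood at 4.17 to 5.18 CPM in group means and passed no test. Btla was under 1 CPM in group means and rose by 1.60 ± 0.44 with IFNγ in knockdown cells, a ratio of counts of 3.09 (95% exact interval 1.7 to 5.94). Btla passed the filter only through the stimulated knockdown libraries (14, 24 and 10 counts), the group where it is high. Pdcd1, Cd226 and Klrb1b had 0 counts in every library, where 3 counts over a group would be 0.0563 to 0.0661 CPM. Cd160 had 2 to 11, Tigit 0 to 4, Cd96 0 to 3 and Pvrig 0 to 1 counts a library.

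Other signals read by phagocytes were taken from a list of 5. Qpctl, the enzyme that modifies CD47 for binding to SIRP alpha, fell by 0.36 and 0.37 on the log2 scale in the knockdown without and with IFNγ. Thbs1, which encodes thrombospondin-1, another CD47 ligand, rose by 1.12 ± 0.07 and 2.43 ± 0.06. Calr, the source of the eat-me signal calreticulin, stood at 0.03 and fell by 0.13, B2m stood at 0.03 and -0.03, and Qpct passed in neither state.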

How the data were processed

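RNA-seq was measured in 12 libraries of B16 cells in 4 groups of 3. The values the authors deposited are raw counts for each gene, in whole numbers. The build GRCm39 and the tools HTSeq, Trimmomatic and HISAT2 2.0.5 are named per the submitters' processing notes, and no source used here states the annotation, the strand setting or the order of steps. Symbols and exon lengths came from GENCODE M21 (GRCm38), which matched 52083 of 56093 entries. Promoter sequences came from RefSeq (GRCm38.p6), so their coordinates are in another build than the notes name.

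Counts were scaled by TMM, with factors of 0.965 to 1.03, and filtered with filterByExpr (minimum count 10, minimum total 15). The edgeR 4.0.16 quasi-likelihood fit (R 4.3.3) used every library, with 8 residual degrees of freedom, a common coefficient of variation between libraries of 0.0633 and a prior count of 0.125. Tests were two-sided, with Benjamini-Hochberg adjustment over all genes of a comparison at 0.05 and no fold minimum. The SE was the log2 fold change over the square root of F. For few counts it can understate the counting error, so ratios of summed counts with exact intervals are given for Tnfrsf14, Clec2d, Pdcd1lg2, Btla, H2-T23, Lgals3, Ulbp1 and Socs1. Those intervals and limits take in counting error alone, as PCR duplicates are not separate molecules.

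The members, gene lists and the motif were chosen with earlier results of these data known, and some genes are not reported here. Named genes were the 9 members, lists of up to 10 genes in full, and up to 4 called genes per comparison with a mean of at least 1 CPM from longer lists. Genes of similar pattern were the 3 nearest to Cd274 and to each member called at a log2 fold change of at least 1, on log2(CPM + 0.5). Alternatives were other scalings (DESeq2 size factors, upper quartile), other tests (DESeq2 1.42.0, and voom in limma 3.58.1), no filter or 1 CPM in 3 libraries, a fit of 2 groups only, a block for the replicate number, and each library left out in turn. A fit without the 677 assembled loci and ENSMUSG00000119584 was added after seeing the data. No 2 libraries held identical values. The fit was tested on simulated data with known changes. Figures used matplotlib 3.10.9.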

Additional observations from a re-analysis of the deposited data

Results flagged for a closer look

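The IFNγ response differed between knockdown and control cells, by the interaction term of the edgeR fit, for 3 of 8 ligand genes and for 7 of 49 tested genes of the related lists (14.3%), where 9.73% of all genes passed. Values are log2 differences, knockdown response minus control response. For Cd47 the difference was 0.59 (edgeR adjusted p = 0.000437), for Pvr 0.26 (0.037) and for Clec2d -1.405 (0.00983). The call on Pvr did not hold in 11 of 20 alternatives, and those on Cd47 and Clec2d held in all 20.

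Among genes acting on these ligands, the difference was 1.31 for Thbs1 (edgeR adjusted p = 6.68e-07), -0.36 for Sirpa (0.00107), 0.50 for Stat2 (0.00182) and -0.55 for Irf1 (0.00194). It was 0.25 for Adam17 (0.0277), -0.24 for Cops5 (0.0339) and -0.19 for Yap1 (0.0383). Thbs1 stood at 12.5 CPM in shRFP, 27.2 in shSdc1, 24.9 in shRFP with IFNγ and 134.4 in shSdc1 with IFNγ. Irf1 stood at 16.1 against 11.65 CPM in unstimulated knockdown and control cells and at 362.4 against 380.3 CPM with IFNγ.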

How the results depend on the processing

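The number of ligand genes called was 4 to 5 for the knockdown in either state, 5 and 6 for IFNγ in control and knockdown cells, and 2 to 3 for the interaction over all alternatives. Of 208 recomputed counts of calls, 204 stayed within 1.5 times the main count. The other 4 were counts over all genes in the interaction, 789 to 847 against 1371, and over all 12 left-out libraries that count ran from 789 to 1999. Cd276, which passed no test, changed sign: for the knockdown with IFNγ its log2 value was 0.00577 with upper-quartile scaling, 0.0159 with limma-voom and 0.00377 with the replicate block, and leaving out 1 library gave -0.172 to 0.0307 for the knockdown without IFNγ, -0.164 to 0.117 with it and -0.0743 to 0.212 for the interaction. Its values that changed sign when 1 library was left out were 0.0307, 0.0162, 0.117, 0.00906, 0.0439, -0.0418 and -0.0743. The cause was not tested. No shared variation by replicate number was seen, which does not settle whether same-numbered libraries were prepared together. Same-numbered libraries of different groups correlated at -0.199 to 0.127, 1 of 18 pairs was over 0.1, and the own number was best in 6 of 18. With the replicate number as a block 3720, 4847, 4185, 4018 and 1028 genes were called, against 4024, 5121, 4446, 4295 and 1371, and 5, 5, 5, 6 and 2 ligand genes, with Pvr lost in the interaction (0.26, edgeR adjusted p = 0.0508). With the compared groups alone Tnfrsf14 was not kept by the filter in the knockdown without IFNγ. Depth limits Pdcd1lg2, and Tnfrsf14 and Clec2d without IFNγ.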

Other observations

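Other ligands of lymphocyte receptors were mostly near or at 0 counts, and 7 of a list of 21 were tested. H2-T23, the mouse Qa-1 gene and ligand of the inhibitory receptor NKG2A, stood at 0.102 and 0.103 CPM in shRFP and shSdc1 and rose to 10.9 and 14.9 CPM with IFNγ, log2 changes of 6.75 ± 0.37 and 7.09 ± 0.35. From 5 counts in each unstimulated group the ratios of counts were 116 (95% exact interval 49.4 to 359) and 147 (62.9 to 455). H2-T23 passed the filter only through the IFNγ libraries, where it is high. The knockdown was higher by 0.45 ± 0.17 with IFNγ (edgeR adjusted p = 0.041). Lgals3, which encodes galectin-3, a ligand of LAG-3, rose in the knockdown by 1.62 ± 0.35 without and 0.83 ± 0.30 with IFNγ, from 0.573 CPM in shRFP, with ratios of counts of 3.07 (95% exact interval 2.03 to 4.75) and 1.78 (1.3 to 2.45). Vsir, Vtcn1, Cd86, Cd200, Fgl1, Tnfsf14 and Tnfsf4 had 0 counts in all 12 libraries. Of 5 matched genes for ligands of the activating receptor NKG2D, 3 were tested. Raet1d rose in the knockdown by 0.41 ± 0.12 and 0.52 ± 0.12, while Raet1e passed in neither state, at -0.37 ± 0.17 and -0.08 ± 0.16. Ulbp1 rose with IFNγ present by 1.33 ± 0.39, from 0.603 to 1.499 CPM, a ratio of counts of 2.56 (95% exact interval 1.63 to 4.13).

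Near Cd274 on the chromosome, in RefSeq gene order, Plgrkt and Pdcd1lg2 are the direct neighbours. Plgrkt rose with IFNγ by 0.51 ± 0.07 in control and 0.98 ± 0.07 in knockdown cells, fell by 0.27 on the log2 scale in the knockdown without IFNγ and rose by 0.20 ± 0.06 with it. Its responses differed by 0.47 ± 0.10 (edgeR adjusted p = 0.00505). Beyond Plgrkt, Rln1 was not tested. Insl6, the third gene on that side, rose with IFNγ in knockdown cells (0.67 ± 0.22, edgeR adjusted p = 0.0286). In control cells Insl6 stood at 0.13 ± 0.21 (edgeR adjusted p = 0.685), and the difference of its responses did not pass (edgeR adjusted p = 0.282). Ermp1, the third gene on the side of Pdcd1lg2, rose with IFNγ by 0.53 ± 0.05 in control cells and by 0.36 ± 0.04 in knockdown cells. Ric1, between Pdcd1lg2 and Ermp1, fell with IFNγ by 0.32 on the log2 scale in control cells and stood at -0.02 ± 0.06 in knockdown cells (edgeR adjusted p = 0.821), a difference of 0.30 ± 0.08 (edgeR adjusted p = 0.03). It fell in the knockdown by 0.48 without and 0.18 with IFNγ.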
